A study of Homo sapiens with 27 samples.

Results

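The Torin response was measured in 501mel cells that lack TFE3, an established human melanoma line that is high in MITF. It was taken as the 3 TFE3 KO libraries treated with Torin against the 3 TFE3 KO control libraries, 6 of the 27 libraries of the series. The cells spent 12 h either in control medium or in 250 nM Torin. Control and Torin libraries were also made from parental (WT) cells, TFEB KO cells and double knockout (DKO) cells that lack TFE3 and TFEB. WT controls are labelled as non-treated, without a time. Each knockout was made with Cas9 and is 1 clone, so clone and genotype cannot be told apart in any comparison between genotypes.

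Torin blocks the kinase mTOR, the core of mTORC1 and mTORC2. With amino acids and growth factors at hand, mTORC1 drives translation, ribosome, lipid and nucleotide synthesis and holds back autophagy, while mTORC2 acts on AKT and so keeps FOXO factors out of the nucleus. mTORC1 also phosphorylates TFEB and TFE3, relatives of the melanocyte factor MITF, and keeps them in the cytoplasm. When mTOR is inhibited both can enter the nucleus and bind E-box sequences at lysosome and autophagy genes, and cells without TFE3 show which transcripts still move with the drug.

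RNA was read at 3′ ends (QuantSeq), so that 1 read stands for 1 transcript end whatever the transcript length. The unit throughout is the normalised read count, with reads scaled to a common library size as in CPM. The TFE3 KO control libraries held 5709602 to 6526392 reads and the Torin libraries 4528920 to 4800843, so the Torin libraries were shallower. A count of 0 allows up to 3 reads, which were worth 0.460 to 0.530 and 0.624 to 0.668, counting error alone being covered. The 10 most abundant genes held 6.76% to 6.99% of the control reads and 8.31% to 8.87% of the Torin reads. The 8 melanocytic markers were all in the table, with a summed value of 6208 to 6472 in the controls and 8808 to 9275 with Torin. Fibroblast markers summed to 0.832 to 3.59 over 4 genes of 8, epithelial markers to 4.99 to 16.1 over 2 of 8, and blood and endothelial markers to 45.6 to 71.4 over 1 of 8 (CD68). Their part in the results was not tested. The columns labelled WT HBSS 3 and WT Torin 1 held the same values in all 13523 genes and were left out, so WT Torin has n = 2 and every other group named here n = 3. Across genes the lowest Pearson r of this column was 0.989 with the other WT HBSS libraries and 0.951 with the other WT Torin libraries. Its values thus lay nearer to WT HBSS.

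TFE3 (chrX:49028726-49043410 in hg38, minus strand) was the edited gene. Its value was 7.59, 5.06 and 6.24 in the TFE3 KO controls and 14, 9.13 and 9.15 with Torin, against 24.3, 23.8 and 24.0 in WT controls and 20.4 and 17.5 in WT with Torin. The edited transcript was thus lower in every TFE3 KO library than in every WT library. A 3′ end read checks neither the edit nor the protein. Within TFE3 KO cells the log2 fold change with Torin was 0.68 (SE 0.17, limma adjusted p = 0.00102), under the size set for a call. TFEB was close to the reading floor, at 0.177, 0.307 and 1.56 in control and 1.91, 1.34 and 2.29 with Torin, and the groups overlapped. Its log2 fold change was 0.84 (SE 0.32, limma adjusted p = 0.0264), also under the size set for a call. Mean TFEB in the controls was 0.681 in TFE3 KO, 3.25 in WT, 1.11 in TFEB KO and 0.661 in DKO. TFEB RNA was thus low in the TFE3 KO clone as well, near its level in DKO. MITF stood at 682, 677 and 688 in control and 843, 853 and 875 with Torin, a log2 fold change of 0.33 (SE 0.06, adjusted p = 1.27e-05). Its log2 fold change was -0.05 in WT, 0.04 in TFEB KO and 0.06 in DKO. The difference in response was 0.38 against WT and 0.28 against TFEB KO (limma adjusted p = 0.0235 and 0.0312). Against DKO it was 0.27 and did not pass. Over 21 alternative settings the difference against WT ran from 0.04 to 0.42.

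Torin changed a large part of the transcriptome of TFE3 KO cells. Among 13052 genes tested, 1523 (11.7%) were called, meaning an adjusted p under 0.05 in limma and a change of 1 or more in either direction on log2(value + 1). Of these 911 (6.98%) rose and 612 (4.69%) fell. At any size, 3317 genes (25.4%) were higher and 3388 (26.0%) lower at an adjusted p under 0.05, and the median log2 fold change of all genes was 0.02. The Torin and control libraries did not overlap in 7622 genes (58.4%), among them 1511 of the 1523 called. The p-values measure the spread between these libraries, which the labels do not state to be separate cultures.

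**Figure D1:**
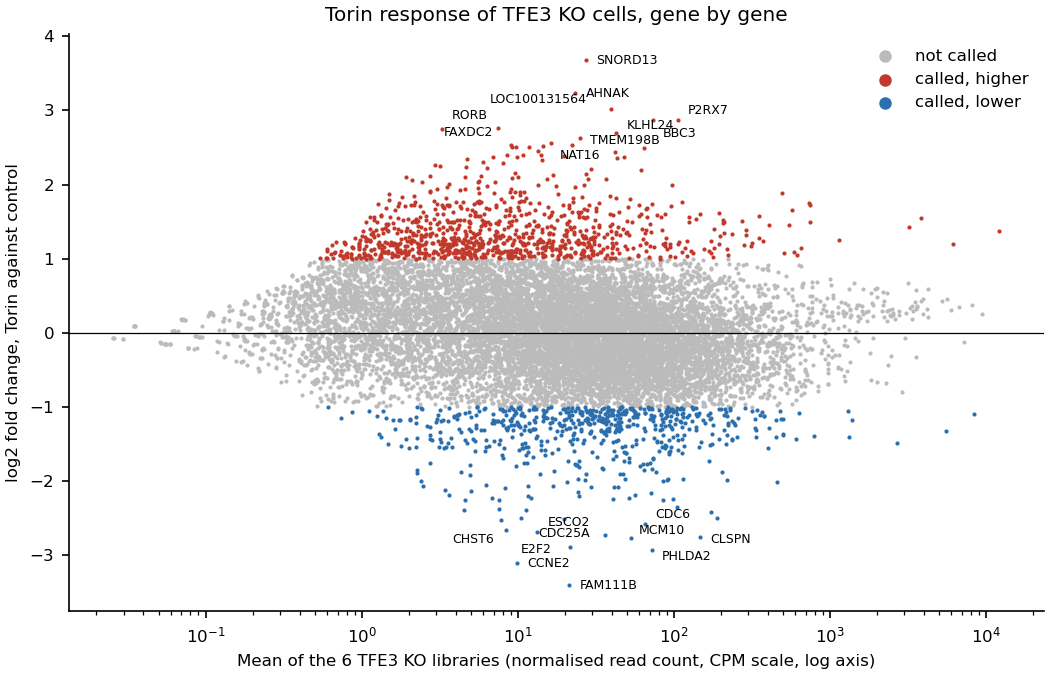
Each point is 1 of 13052 genes, with the mean of the 6 TFE3 KO libraries on a log axis (normalised read count, CPM scale) and the log2 fold change of Torin against control on the vertical axis. Red points are the 911 genes called higher, blue points the 612 called lower and grey points the rest. The labelled genes are the 10 called genes at each end with a mean of at least 5 and no overlap between libraries.

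At the low end stood genes of the G1 to S transition and of DNA replication. FAM111B, a protease linked to DNA replication (chr11:59107185-59127412, plus strand), had values of 33.6, 41.7 and 43.5 in control and 4.03, 3.56 and 1.46 with Torin, the lowest log2 fold change of the genes named by the rule at -3.40 (SE 0.23, adjusted p = 6.29e-16). CCNE2, cyclin E2, which drives CDK2 at the start of S phase, went from 20.8, 14.9 and 19.8 to 0.848, 2 and 1.04 (log2 fold change -3.10). E2F2, an activating member of the E2F family, stood at 40.1, 38.3 and 38.4 in control and at 4.45, 5.34 and 3.54 with Torin (-2.89). The phosphatase CDC25A, which removes the inhibitory phosphates of CDK2, fell from 66.0, 59.8 and 63.9 to 6.36, 12.5 and 8.32 (-2.72). The rule that named these 4 genes took only genes without overlap between the groups of libraries. CLSPN (claspin, a mediator of the replication checkpoint) fell by 2.75, MCM10 by 2.77, CDC6, which licenses origins, by 2.58 and the cohesin acetyltransferase ESCO2 by 2.68 on the log2 scale. PHLDA2, an imprinted gene, and the sulfotransferase CHST6 completed the 10, with log2 fold changes of -2.93 and -2.66.

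At the high end, SNORD13, a small nucleolar RNA, read 3, 2.91 and 3.43 in control and 55.3, 49.4 and 50.3 with Torin (log2 fold change 3.68, SE 0.18, adjusted p = 1.23e-22). The libraries were made from polyadenylated RNA, so these reads need not give the level of the mature RNA. Which form of the transcript they came from was not tested. AHNAK, a very large scaffold protein (chr11:62433542-62556235, minus strand), rose from 3.89, 4.91 and 2.34 to 48.5, 47.4 and 32.7 (3.24). BBC3 (chr19:47220822-47232766, minus strand) encodes PUMA, a BH3-only protein that promotes apoptosis and a target of p53 and FOXO3. Its values were 17.5, 17.2 and 15.9 in control and 134, 119 and 135 with Torin (2.87). P2RX7, an ATP-gated channel, went from 23.5, 26.2 and 24.0 to 164, 185 and 211, and KLHL24, a ubiquitin ligase adaptor, from 9.01, 12.7 and 10.4 to 74.4, 75.0 and 74.1. Genes with overlap between control and Torin libraries were left out at this end too by the rule. The nuclear receptor RORB reached a log2 fold change of 2.77, TMEM198B 2.63, NAT16 2.56 and FAXDC2 2.54. LOC100131564, which ranked next after SNORD13 and AHNAK, read 9.89, 7.21 and 6.86 in control and 69.1, 73.0 and 70.5 with Torin.

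**Figure D2:**
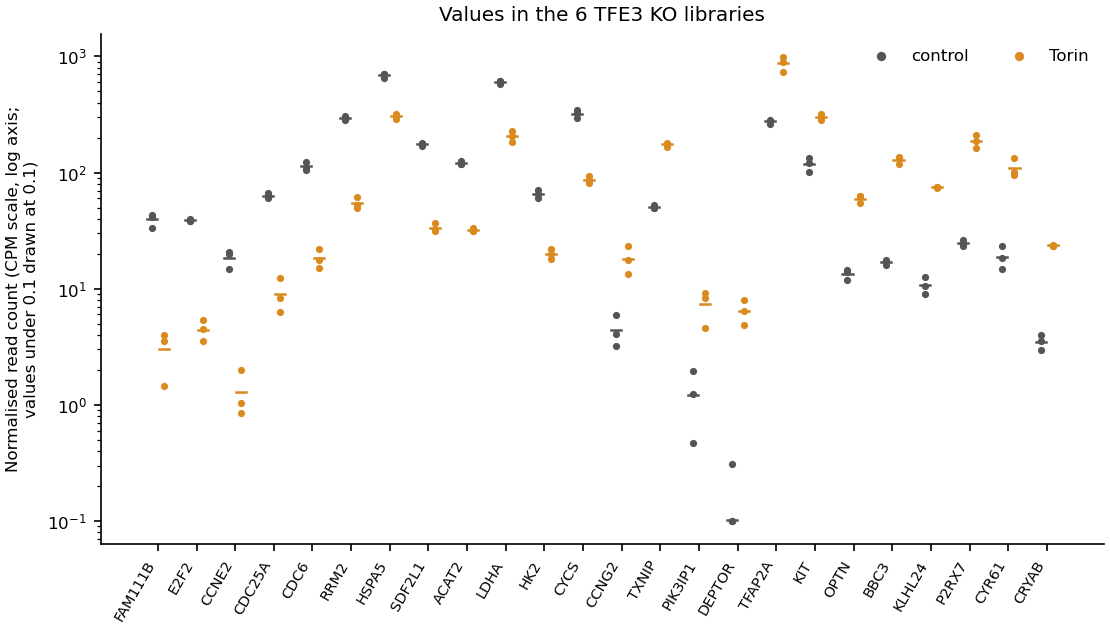
Points are the 3 control (grey) and 3 Torin (orange) libraries of TFE3 KO cells for 24 genes, as normalised read count on a log axis, and short bars are group means (a value of 0 is drawn at 0.1). The control and Torin libraries do not overlap in any of these genes, some of which were named by a rule that required this. The same held for 1511 of the 1523 called genes and for 58.4% of all genes.

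Of 39 mTOR pathway genes tested, 1 was called higher and 1 lower (2.56% each, against 6.98% and 4.69% of all genes). DEPTOR, a protein that binds and inhibits mTOR, had 0, 0.307 and 0 in control and 4.88, 8.02 and 6.45 with Torin (log2 fold change 2.75, SE 0.31, adjusted p = 2.39e-10). The control value stands for 2 reads in 1 library, so the size of this change depends on the added 1. GATSL2, now CASTOR2, of a family that relays arginine to mTORC1, went from 6.71, 7.82 and 5.30 to 3.18, 1.56 and 1.46 (-1.34, adjusted p = 3.25e-05). At any size 6 of the 39 were higher and 12 lower, against 25.4% and 26.0% of all genes, and 21 did not pass. Among those that passed, RICTOR, the defining subunit of mTORC2, had a log2 fold change of 0.93, TSC2, which turns off the mTORC1 activator RHEB, 0.63 and RHEB itself -0.67. The translation repressors EIF4EBP1 and EIF4EBP2, both mTORC1 substrates, had -0.64 and -0.51. MTOR itself read 58.3, 56.4 and 49.4 in control and 54.5, 57.7 and 56.6 with Torin, with overlap.

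Genes of insulin signalling, PI3K and FOXO feedback were called in 1 direction only. Of 33 tested, 10 rose and 0 fell, against 6.98% and 4.69% of all genes, and the median log2 fold change was 0.51. PIK3IP1, an inhibitor of PI3K, rose from 1.94, 1.23 and 0.468 to 8.27, 9.13 and 4.58 (1.92). CCNG2, a cyclin that marks cell cycle exit, read 3.18, 5.98 and 4.05 in control and 23.3, 17.8 and 13.3 with Torin (1.82). TXNIP, which restrains glucose uptake, went from 49.8, 49.2 and 52.6 to 181, 177 and 166 (1.77), and CITED2 had a log2 fold change of 1.60. In each of these genes all 3 Torin libraries lay above all 3 controls, and 1511 of all 1523 called genes likewise had no overlap. At any size, 21 of the 33 were higher and 4 lower, against 25.4% and 26.0% of all genes.

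**Figure D3:**
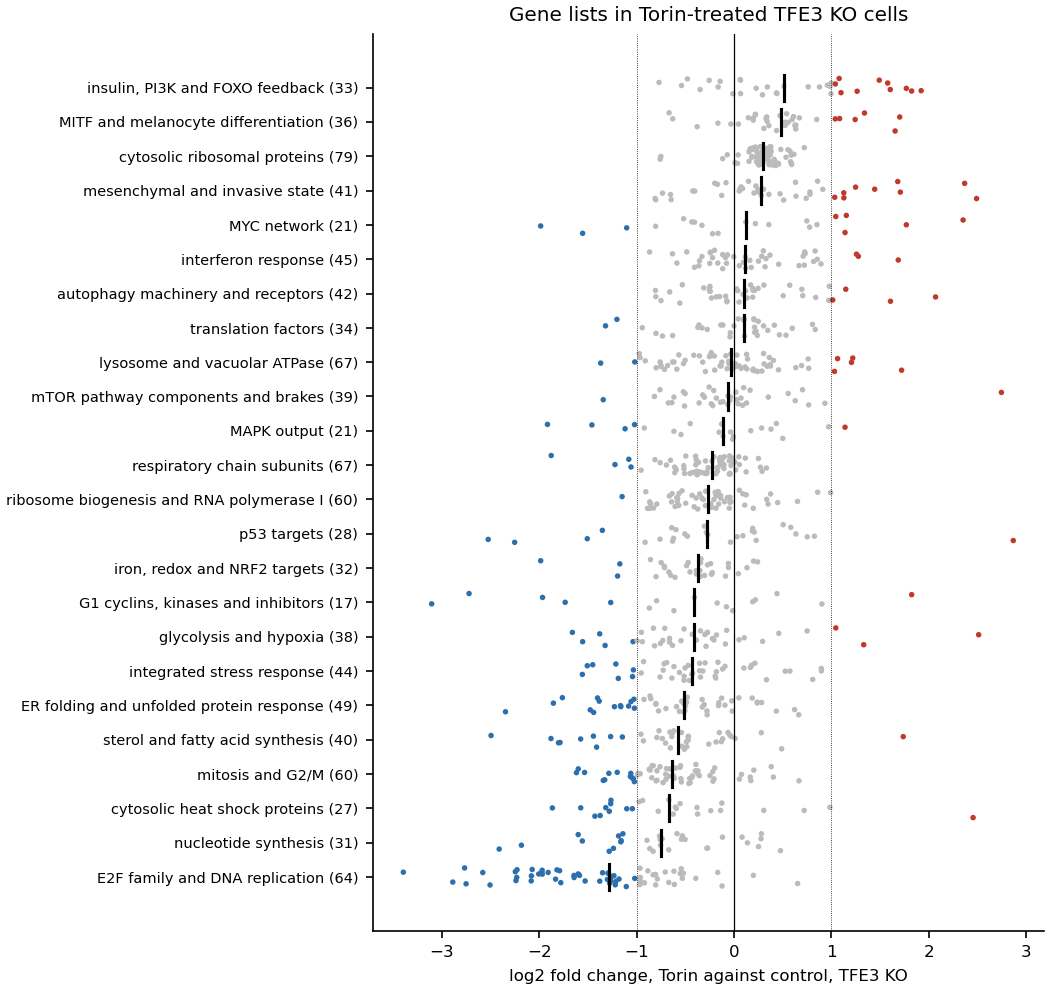
Each point is a gene of the list named at the left (number tested in brackets), at its log2 fold change with Torin in TFE3 KO cells. Red and blue points were called higher and lower, black bars are list medians and dotted lines mark log2 fold changes of -1 and 1. The list medians run from -1.28 for E2F and DNA replication to 0.51 for insulin, PI3K and FOXO feedback.

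Lysosome and vacuolar ATPase genes, the class most tied to TFE3 and TFEB, were called at shares near those of all genes. Of 67 tested, 5 (7.46%, against 6.98% of all genes) were called higher and 2 (2.99%, against 4.69%) lower, and the median was -0.03. CTSF, cathepsin F, read 31.8, 26.5 and 24.5 in control and 95.2, 92.2 and 90.9 with Torin (log2 fold change 1.72, SE 0.12, adjusted p = 2.5e-17). GAA, the acid glucosidase that breaks down glycogen in lysosomes, rose from 3.36, 2.76 and 4.52 to 7.84, 10.0 and 10.4 (1.21). CTSO, IDUA and MANBA were the other 3 that rose, and CTSO and IDUA were near the reading floor, with control means of 0.474 and 0.522. The proton pump subunits ATP6V0B and ATP6V0D1 were the 2 that fell. ATP6V0B had 268, 235 and 260 in control and 104, 86.6 and 104 with Torin (-1.37), and ATP6V0D1 77.2, 80.1 and 86.1 against 39.9, 40.7 and 37.9 (-1.02). At any size 17 of the 67 were higher and 22 lower, against 25.4% and 26.0% of all genes.

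Among 42 autophagy genes 4 rose (9.52%, against 6.98% of all genes) and 0 fell, and the median was 0.11. OPTN, an autophagy receptor, went from 11.8, 14.6 and 14 to 62.3, 54.5 and 62.2 (log2 fold change 2.07, adjusted p = 1.2e-19). The receptor NBR1 read 46.6, 38.8 and 42.9 in control and 135, 131 and 129 with Torin (1.61). ATG2A, a lipid transfer protein of the growing autophagosome, had 1.15 and BNIP3L, a mitophagy receptor, 1.01. Both receptors rose without overlap between libraries, which was usual among called genes (1511 of 1523).

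Of 36 MITF and melanocyte differentiation genes 6 rose (16.7%, against 6.98% of all genes) and 0 fell. The median log2 fold change was 0.49, and 25 of the 36 were higher at any size, against 25.4% of all genes. OCA2, a melanosome channel protein, rose from 21.0, 23.5 and 25.4 to 88.4, 73.3 and 72.8 (1.70). The transcription factor TFAP2A, which works with MITF, went from 263, 284 and 278 to 989, 895 and 740 (1.65). KIT, the receptor for stem cell factor, read 122, 134 and 102 in control and 302, 322 and 281 with Torin (1.34), and the endothelin receptor EDNRB had a log2 fold change of 1.24. None of these groups overlapped, which held for 1511 of all 1523 called genes. In bulk RNA more cells of a type and more RNA per cell cannot be told apart. The summed melanocytic markers given above moved the same way, but they are genes of the same kind and give no separate support.

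E2F and DNA replication genes had the lowest median of the lists. Of 64 tested, 41 fell (64.1%, against 4.69% of all genes) and 0 rose, and the median log2 fold change was -1.28. At any size 60 of the 64 were lower and 1 higher, against 26.0% and 25.4% of all genes. Nucleotide synthesis followed, with 10 of 31 genes lower (32.3%, against the same 4.69%), 0 higher and a median of -0.75. RRM2, the ribonucleotide reductase subunit that limits dNTP supply, read 286, 287 and 305 in control and 52.2, 62.1 and 49.1 with Torin (-2.41, SE 0.08, adjusted p = 6.55e-28). CTPS1, which makes CTP, went from 93.6, 89.1 and 95.3 to 20.4, 20.3 and 18.3 (-2.18). Thymidylate synthase (TYMS) and the mitochondrial folate enzyme MTHFD2 fell by 1.60 and 1.56 on the log2 scale.

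Of 60 mitosis and G2/M genes 12 fell (20%, against 4.69% of all genes) and 0 rose. The median was -0.64 and 47 of the 60 were lower at any size, against 26.0% of all genes. MYBL2 (B-MYB), which activates G2/M genes, had 246, 250 and 277 in control and 83.3, 75.5 and 71.8 with Torin (-1.73), and the cohesin regulator CDCA5 had -1.60. Of 17 G1 cyclins, kinases and inhibitors 5 fell (29.4%, against 4.69%) and 1, CCNG2, rose (5.88%, against 6.98%). CCND3, cyclin D3, went from 78.2, 72.5 and 82.3 to 14.8, 20.7 and 22.7 (-1.97).

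Short stretches of promoters show the letters that several of these genes share. Promoter windows of 250 bases before to 50 after the start were taken from RefSeq (GRCh38.p14) and were given for 10227 of the 13052 genes. For E2F the letters TTTCCCGC and TTTGGCGC were searched on both strands. They were present in 3.85% of all promoters, in 9.31% of those of called lower genes, in 1.63% of those of called higher genes and in 23 of 55 (41.8%) of those of the E2F and replication list. The 3 stretches below are shown for genes that fell, with the motif in capitals. They lie at chr1:23531253-23531290 (minus strand), chr3:48188439-48188476 (minus) and chr11:65084063-65084100 (minus).
E2F2: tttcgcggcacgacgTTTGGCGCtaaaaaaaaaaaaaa
CDC25A: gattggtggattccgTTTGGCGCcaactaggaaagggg
CDCA5: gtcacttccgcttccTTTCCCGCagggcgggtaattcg

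For the MITF family the long E-box TCACGTGA and its core CACGTG were searched, and every long E-box also counts as a core. The long E-box was present in 1.99% of all promoters, 1.34% of those of called higher genes and 1.22% of those of called lower genes, and in 8 of 43 (18.6%) of those of the lysosome list. The 203 genes that hold it had a median log2 fold change of -0.01. Of these, 9 were called higher (4.43%, against 6.58% of all genes with a promoter) and 6 lower (2.96%, against 4.83%). The core was in 10.4% of all promoters, 9.36% of called higher and 11.7% of called lower genes. The stretches below are from genes that rose (GAA, BBC3) and fell (ATP6V0D1), with the long E-box in capitals. They lie at chr17:80101489-80101571 (plus), chr19:47232878-47232915 (minus) and chr16:67481195-67481232 (minus).
GAA: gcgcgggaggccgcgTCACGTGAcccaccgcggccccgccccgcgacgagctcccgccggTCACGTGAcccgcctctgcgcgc
BBC3: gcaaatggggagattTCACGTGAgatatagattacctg
ATP6V0D1: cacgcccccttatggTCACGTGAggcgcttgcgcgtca

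In the endoplasmic reticulum (ER) list, which covers folding and the unfolded protein response, 14 of 49 fell (28.6%, against 4.69% of all genes). In this list 0 rose, and the median was -0.52. SDF2L1, an ER chaperone partner (chr22:21642302-21644299, plus strand), read 179, 168 and 177 in control and 36.5, 31.6 and 32.7 with Torin (log2 fold change -2.35, SE 0.09, adjusted p = 7.42e-26). HSPA5 (BiP, chr9:125234853-125241382, minus strand), the main ER chaperone, went from 709, 699 and 655 to 312, 318 and 289 (-1.16). CRELD2 and MANF, both secreted in ER stress, had -1.85 and -1.76. Of 27 cytosolic heat shock genes 10 fell (37.0%, against the same 4.69%), with a median of -0.67. HSPA1B read 29.5, 28.2 and 23.9 in control and 6.78, 6.90 and 6.45 with Torin (-1.86), and the co-chaperones DNAJA1 and STIP1 had -1.57 and -1.43. CRYAB, a small heat shock protein, was the 1 that rose, from 3.53, 3.99 and 2.96 to 23.5, 23.4 and 23.7 (2.46). The early stress genes (6 tested) had a summed value of 175 to 186 in control and 121 to 132 with Torin.

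The ER stress element, a motif bound by ATF6 and NF-Y, was in 14 promoters (0.137% of all), and 7 of these were among the 43 with a promoter in the ER list (16.3%). Of the 14 genes 0 rose (against 6.58% of all genes with a promoter), and the median log2 fold change was -0.58. The 4 that fell (28.6%, against 4.83%) were CALR, CRELD2, HSPA5 and XBP1. Their stretches are shown with both boxes of the element in capitals, from chr19:12938369-12938417 (plus), chr22:49918539-49918587 (plus), chr9:125241376-125241424 (minus) and chr22:28800588-28800636 (minus). CALR is the ER chaperone calreticulin and XBP1 a transcription factor of the unfolded protein response.
CALR: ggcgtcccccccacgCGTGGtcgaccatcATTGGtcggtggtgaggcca
CRELD2: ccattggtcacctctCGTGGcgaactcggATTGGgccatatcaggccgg
HSPA5: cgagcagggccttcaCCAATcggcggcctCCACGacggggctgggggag
XBP1: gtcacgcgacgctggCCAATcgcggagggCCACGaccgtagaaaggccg

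Of 40 sterol and fatty acid synthesis genes 9 fell (22.5%, against 4.69% of all genes) and 1 rose (2.5%, against 6.98%). The median was -0.58. ACAT2, an acetyl-CoA acetyltransferase, read 120, 119 and 125 in control and 33.5, 31.6 and 31.4 with Torin (log2 fold change -1.88, SE 0.09, adjusted p = 6.27e-23). DHCR7, an enzyme of late cholesterol synthesis, had -1.79, and the libraries overlapped in neither gene. LPIN1, a phosphatidate phosphatase that restrains SREBP when mTORC1 is off, was the 1 that rose, from 32.0, 38 and 29.0 to 112, 112 and 111 (1.74). Of 38 glycolysis and hypoxia genes 5 fell and 3 rose (13.2% and 7.89%, against 4.69% and 6.98% of all genes). LDHA, lactate dehydrogenase, went from 611, 583 and 613 to 206, 184 and 226 (-1.55) and HK2, hexokinase, from 70.1, 65.0 and 60.2 to 22.0, 18 and 19.8 (-1.66). ENO2 and the glucose transporter SLC2A1 had -1.38 and -1.32. Those that rose do not belong to the glycolytic enzymes: NDRG1 (2.51), the fatty acid transporter SLC27A1 (1.33) and MXI1 (1.05), a MYC antagonist.

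The translation machinery showed small shifts in opposite directions. Of 79 cytosolic ribosomal protein genes 0 were called, and the median log2 fold change was 0.30. But 67 were higher and 2 lower at any size, against 25.4% and 26.0% of all genes. Of 60 ribosome biogenesis genes 1 (1.67%, against 4.69% of all genes), MRTO4, was called lower (-1.15). At any size 32 of the 60 were lower and 7 higher, against 26.0% and 25.4% of all genes, and the median was -0.26. Among 34 translation factors the cap-binding protein EIF4E (-1.32) and EIF2S1 (-1.20) fell, a share of 5.88% that was also near the background. Of 67 respiratory chain genes 4 fell, a share of 5.97% near the 4.69% of all genes, and 0 rose. The lowest was cytochrome c (CYCS), from 295, 326 and 346 to 93.9, 85.9 and 81.1 (-1.88). Of 44 integrated stress response genes 7 fell (15.9%, against 4.69% of all genes) and 0 rose, with a median of -0.43. Among the 7 were GDF15 (-1.51), the glutamine transporter SLC1A5 (-1.45) and CEBPG (-1.21). Of 32 iron, redox and NRF2 genes 3 fell (9.38%, against 4.69%), namely TFRC (the transferrin receptor, -1.99), GCLM (-1.20) and HMOX1 (-1.17).

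Regulators of growth and survival split. In the MYC network (21 tested) 5 rose and 3 fell (23.8% and 14.3%, against 6.98% and 4.69% of all genes). The antagonist MXD4 read 10.4, 15.8 and 14.7 in control and 67.2, 71.9 and 79.5 with Torin (2.35), and MYC itself 13.1, 11.3 and 15.4 against 37.1, 30.9 and 24.1, also called higher. In the p53 list (28 tested) BBC3 rose (3.57%, against 6.98%) and 4 fell (14.3%, against 4.69%). The 4 were PMAIP1 (NOXA, -2.52), the exonuclease AEN (-2.25), GDF15 and TIGAR (-1.35). BBC3 and PMAIP1 both encode BH3-only proteins, and they were called in opposite directions. PMAIP1 had 12.9, 15.2 and 14 in control and 1.70, 2.23 and 1.04 with Torin. Of 21 MAPK output genes MYC rose and FOSL1 (-1.92), EGR1 (-1.46), IER3 (-1.12) and DUSP5 (-1.02) fell. The shares were 4.76% higher and 19.0% lower, against 6.98% and 4.69% of all genes.

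In the mesenchymal and invasive list only 41 of 66 genes were tested. Of these 9 (22.0%, against 6.98% of all genes) rose and 0 fell. CYR61 (CCN1) read 14.8, 18.2 and 23.4 in control and 102, 132 and 95.5 with Torin (2.49) and CTGF (CCN2) 14.1, 14.9 and 15.7 against 85.6, 89.7 and 69.5 (2.37). Both are matricellular proteins and targets of YAP. Fibronectin (FN1) and TAGLN had log2 fold changes of 1.71 and 1.68. The fibroblast markers, given above, were higher in no Torin library than in the highest control. Of 45 interferon genes 3 rose, a share of 6.67% that was no higher than the 6.98% of all genes, and 0 fell. The 3 were STAT2 (1.69), PARP14 (1.28) and DDX60 (1.26).

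The other genotypes were used to ask which of these responses differed between genotypes, where clone and genotype cannot be told apart. WT controls are labelled as non-treated without a time, while knockout controls are labelled 12 h. A difference from WT can thus also hold a difference in handling, which was not tested. Torin called 1261 genes (9.66%) in WT, 655 (5.02%) in TFEB KO and 1452 (11.1%) in DKO. Of the genes called in TFE3 KO, 853 (56.0% of them, 67.6% of those of WT) were called in WT in the same direction and 1 in the opposite one. With TFEB KO 456 were shared (29.9% and 69.6%) and with DKO 1013 (66.5% and 69.8%), and 0 were opposite in either. Across the 13052 genes the log2 fold changes of TFE3 KO had a Pearson r of 0.847 with those of WT, 0.784 with TFEB KO and 0.898 with DKO, which describes genes and not independent replicates. These genotypes share no libraries. The SD of the log2 fold changes was 0.65 in TFE3 KO, 0.61 in WT, 0.50 in TFEB KO and 0.64 in DKO.

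The difference in response was itself tested, as an interaction in the same limma fit. TFE3 KO and WT differed in 36 genes (0.276%), 23 higher and 13 lower in TFE3 KO, and in 139 (1.06%) at any size. TFE3 KO and TFEB KO differed in 180 (1.38%), 90 in each direction, and in 1003 (7.68%) at any size. TFE3 KO and DKO differed in 1 gene (0.00766%), DHRS2, and in 7 (0.0536%) at any size, with 735 at an unadjusted p under 0.05. An unpassed test does not show that responses were alike, and the median SE of a difference was 0.24 against WT and 0.23 against the knockouts. The count against WT ran from 9, with the duplicated column taken as WT Torin, to 39 over the settings tried.

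**Figure D4:**
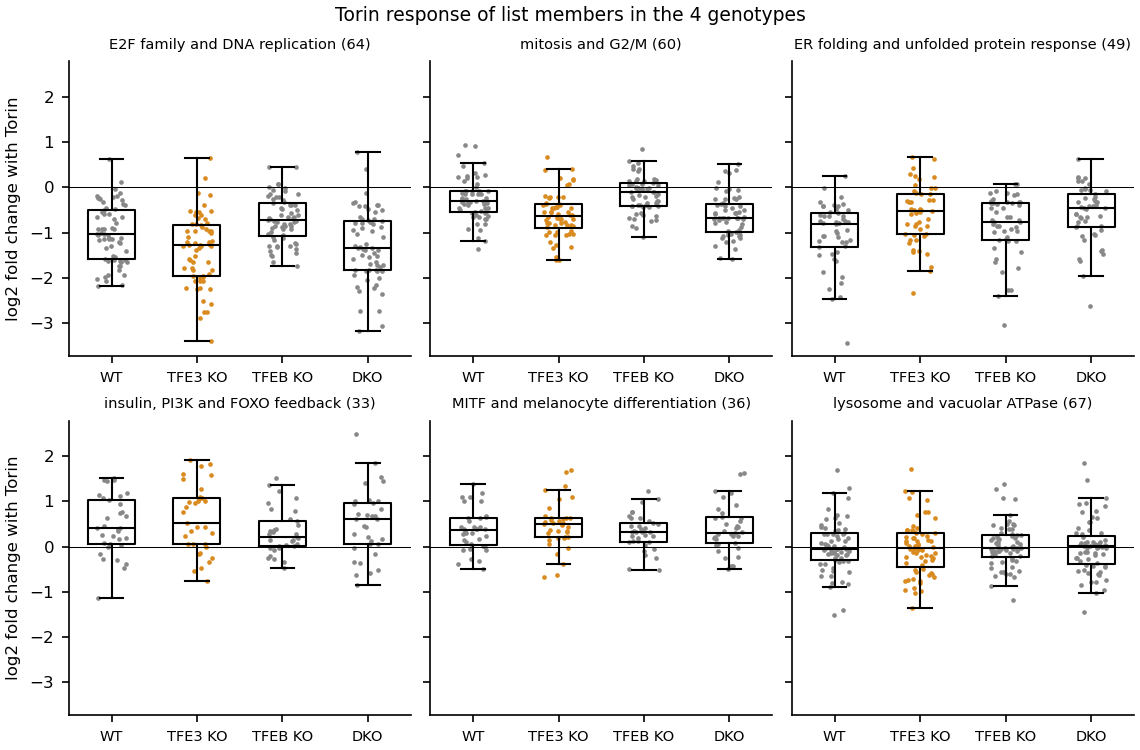
Log2 fold changes with Torin of the members of 6 gene lists (number in brackets) in WT, TFE3 KO (orange), TFEB KO and DKO cells. Boxes span the quartiles with the median as a line, whiskers reach the furthest point within 1.5 times the box, and every gene is a point. In E2F and DNA replication the medians are -1.04, -1.28, -0.73 and -1.33 in that order.

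For replication genes the list medians were lowest in the genotypes that lack TFE3. The E2F and replication list had medians of -1.28 in TFE3 KO and -1.33 in DKO against -1.04 in WT and -0.73 in TFEB KO. The response of TFE3 KO was lower than that of WT in 57 of the 64 genes. It passed the test of the difference in 6 (9.38%, against 1.06% of all genes). Compared with TFEB KO it was lower in 63 and passed in 38 (59.4%, against 7.68% of all genes). Against DKO 0 passed, where 0.0536% of all genes did. The 6 that passed against WT, named after their values were seen, were FAM111B, MCM4, MCM10, ORC6, CLSPN and MCM3. Mitosis and G2/M genes had medians of -0.64 in TFE3 KO, -0.67 in DKO, -0.31 in WT and -0.11 in TFEB KO. The difference passed in 4 genes against WT (6.67%) and 25 against TFEB KO (41.7%), all of them lower in TFE3 KO.

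FAM111B shows the pattern in single libraries. With Torin it read 4.03, 3.56 and 1.46 in TFE3 KO, 6.09 and 2.61 in WT, 8.10, 12.3 and 12.6 in TFEB KO and 4.77, 3.98 and 3.94 in DKO, and in the controls 33.6 to 43.5, 16.8 to 20.6, 28.9 to 34.9 and 40.8 to 45.5 in that order. The difference in response was -1.42 (SE 0.34, adjusted p = 0.0245) against WT and -1.91 (SE 0.32, adjusted p = 6.75e-05) against TFEB KO. With Torin the TFE3 KO and WT libraries overlapped, and it was the controls that lay apart. Without WT Torin 2 the difference against WT was -0.94 and did not pass.

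ER genes went the other way, with a shallower fall in TFE3 KO than in WT. Medians of the ER list were -0.52 in TFE3 KO and -0.46 in DKO, against -0.80 in WT and -0.77 in TFEB KO. In 46 of 49 genes the response of TFE3 KO lay above that of WT, and 12 of 49 passed the test of the difference, all in that direction, against 1.06% of all genes. HSPA5 read 1732, 1713 and 1778 in WT controls and 368 and 368 with Torin, where TFE3 KO had 709, 699 and 655 and then 312, 318 and 289. The difference in response was 1.07 (SE 0.12, adjusted p = 2.75e-08). SDF2L1 read 420, 378 and 386 in WT controls and 33.0 and 38.4 with Torin, and its difference was 1.09 (SE 0.14, adjusted p = 1.7e-06). For HERPUD1, which takes part in ER-associated degradation, the difference was 1.05, with 32.0, 41.9 and 41.8 against 43.2, 35.8 and 40.2 in TFE3 KO and 102, 83.9 and 86.8 against 46.9 and 42.7 in WT. In all 12 genes the control levels of TFE3 KO and WT lay further apart, on log2(value + 1), than the Torin levels, which was so in 20 of the 36 genes called different and in 44.9% of all genes. With the duplicated column taken as WT Torin the differences of HSPA5, SDF2L1 and HERPUD1 were under 1 or did not pass. That column lay nearer to the WT HBSS than to the WT Torin libraries (lowest r of 0.989 and 0.951).

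CRYAB had the highest difference from WT of the genes named, 2.67 (SE 0.26, adjusted p = 1.19e-09). WT cells read 70.2, 70.9 and 74.9 in control and 65.9 and 58.5 with Torin, TFEB KO 46.3 to 52.1 and 60.7 to 69.0, and DKO 0.467 to 2.09 and 5.12 to 8.15. TFE3 KO controls, at 2.96 to 3.99, thus lay far below WT and near DKO, and the 23.4 to 23.7 reached with Torin stayed below WT. CYR61 read 56.9 to 62.6 in WT controls and 116 to 127 with Torin, so TFE3 KO controls started lower here too, with a difference of 1.47 (SE 0.22, adjusted p = 8.68e-05). RORB (1.84) and AHNAK (1.31) also started lower in TFE3 KO than in WT, and FAM133A had a difference of 1.47. NUPR1 (1.70) and PSAT1 (1.56), both genes of the amino acid stress response, were at or near the reading floor in all 6 TFE3 KO libraries. NUPR1 read 17.1 to 19.3 in WT controls and 4.27 and 6.33 with Torin, while the TFE3 KO libraries stayed at 0 to 0.445. The call was lost under 14 of the 21 settings for PSAT1, 7 for FAM133A, 6 for NUPR1 and 2 each for RORB and AHNAK, and under 0 for CRYAB and CYR61.

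**Figure D5:**
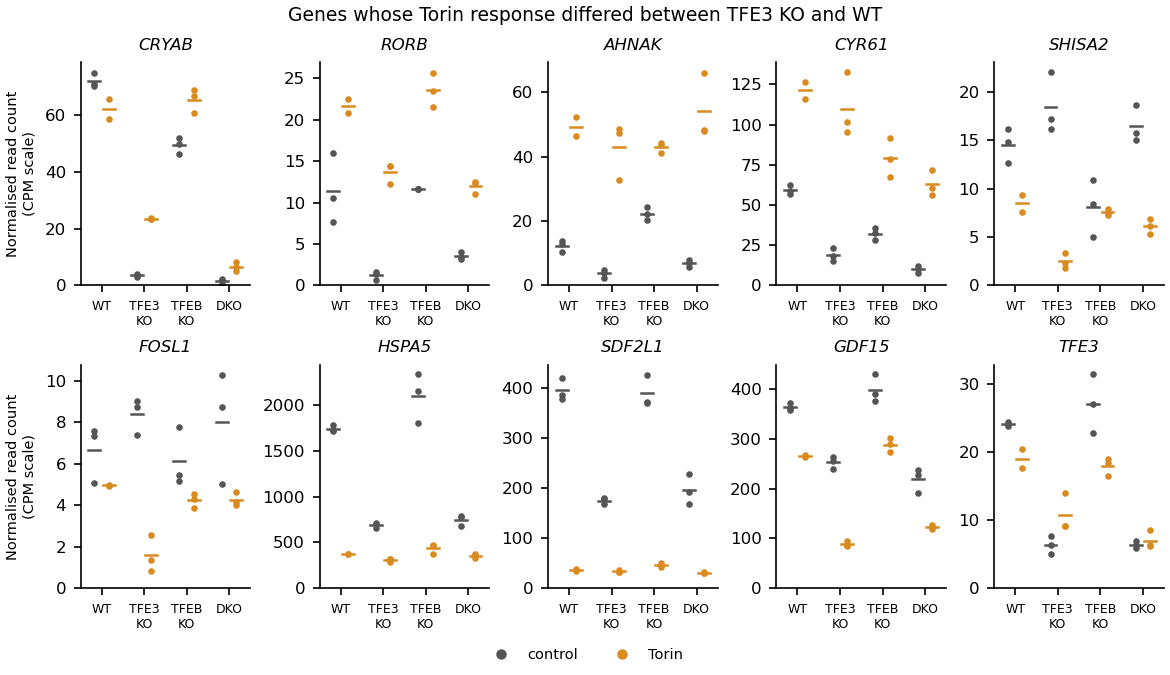
Normalised read counts (CPM scale, linear axes from 0) of 10 genes whose Torin response differed between TFE3 KO and WT, in control (grey) and Torin (orange) libraries of the 4 genotypes, with bars at group means. WT Torin has 2 libraries and the other groups 3. HSPA5 and SDF2L1 differ most between the controls, SHISA2 and FOSL1 between the Torin libraries.

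A further set of genes responded lower in TFE3 KO than in WT. SHISA2, an ER protein that attenuates WNT and FGF receptors, read 22.1, 17.2 and 16.2 in TFE3 KO control and 2.33, 1.78 and 3.33 with Torin, against 12.7 to 16.2 and 7.58 to 9.38 in WT, a difference of -1.78 (SE 0.33, adjusted p = 0.00164). FOSL1, an AP-1 subunit, had a difference of -1.57 (adjusted p = 0.0404) and CTLA4, an immune checkpoint receptor, of -1.13. GDF15, a stress cytokine, read 238, 263 and 256 in TFE3 KO control and 85.2, 93.7 and 85.7 with Torin, against 358 to 372 and 263 to 268 in WT. Its difference was -1.05 (SE 0.11, adjusted p = 1.94e-08), and the Torin libraries of the genotypes did not overlap. DNM3 (-1.25) and TMEM37 (-1.21) were the other 2 named. TFE3 itself differed by 1.01 (adjusted p = 0.0404). Of the 21 alternative settings, the call was lost under 13 for FOSL1 and for TFE3, 12 for TMEM37, which reached -0.60 with the duplicated column as WT Torin, 10 for DNM3, 4 for CTLA4, 3 for SHISA2 and 0 for GDF15.

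Against TFEB KO the largest differences of the genes named were SHISA2 (-2.46), CCNE2 (-1.96), FAM111B (-1.91), ATP1B1 (-1.74), BASP1 (-1.67) and AMIGO2 (-1.67) on the low side. ATP1B1, a sodium pump subunit, read 23.7, 19.8 and 15.4 in TFE3 KO control and 4.03, 1.56 and 3.54 with Torin, but 44.4, 50.4 and 42.8 and then 28.8, 33.0 and 25 in TFEB KO. On the high side stood AHNAK (2.31), CRYAB (2.06), RORB (1.81), the ubiquitin ligase adaptor FBXO2 (1.80), PRICKLE1 (1.76), of planar polarity signalling, and FAR2P1 (1.55). PRICKLE1 rose from 2.47, 2.45 and 3.74 to 13.6, 17.4 and 17.9 in TFE3 KO and read 4.97 to 8.06 and 7.94 to 10.8 in TFEB KO.

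DHRS2, a mitochondrial reductase, was the 1 gene called different from DKO. It read 5.65, 4.60 and 4.68 in TFE3 KO control and 3.60, 5.79 and 2.08 with Torin, with overlap, and rose in DKO from 7.79, 11.7 and 14.1 to 37.5, 37.4 and 39.4. The difference was -2.09 (SE 0.27, adjusted p = 1.35e-05).

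The lysosome list differed little between genotypes. Its medians were -0.03 in TFE3 KO, -0.04 in WT and in TFEB KO and 0.00 in DKO. The difference passed in 2 genes against WT (2.99%, against 1.06% of all genes) and 3 against TFEB KO (4.48%, against 7.68%). All of these were lower in TFE3 KO, and 0 passed against DKO. CTSF rose in every genotype, with log2 fold changes of 1.72 in TFE3 KO, 1.69 in WT, 1.38 in TFEB KO and 1.86 in DKO, and GAA had 1.21, 1.19, 1.07 and 1.46. In the mTOR list 0 genes passed the difference from WT, and DEPTOR read 0.390 to 0.822 and then 7.73 and 11.4 in WT. The insulin, PI3K and FOXO list had medians of 0.51 in TFE3 KO, 0.41 in WT, 0.21 in TFEB KO and 0.61 in DKO. Here 0 genes passed against WT or DKO. Against TFEB KO 8 passed (24.2%, against 7.68% of all genes), all higher in TFE3 KO. BBC3 rose in all 4 genotypes, by 2.87 in TFE3 KO and 2.76, 2.25 and 2.63 in WT, TFEB KO and DKO.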

How the data were processed

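Polyadenylated RNA was read with QuantSeq Forward 3′ libraries in 27 samples. Per the submitters' processing notes the authors used FastQC 0.11.9, cutadapt 2.10, STAR 2.7.8a and edgeR with hg38. Each deposited value is a normalised signal (CPM scaled again by library) for 1 gene symbol. The counter and gene filter are not given in the sources used here. All values were whole multiples of 1 step (tolerance 0.01 steps), so reads were recovered for the count tests named below, and 0 columns lacked a sample.

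The test took genes that reached a value of 1 in 3 or more libraries (13052 of 13523, with 471 left out). The log2(value + 1) of 25 libraries in 9 groups was fitted in 1 model with limma 3.58.1 (moderated with a mean trend and robust priors, R 4.3.3), which was tested on simulated data. Tests were 2-sided, with Benjamini-Hochberg adjustment over all genes tested within each comparison, and differences in response are interactions. At low values a fold change is drawn towards 0 by the added 1. Alternatives included edgeR 4.0.16 and DESeq2 1.42.0 on the recovered reads, other pseudocounts and filters, the duplicated column kept, and each library left out in turn. No set test was run and lists are described by counts and medians.

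Genes named are TFE3, TFEB and MITF, the 10 called genes at each end with a mean of at least 5 and no overlap, up to 4 called genes at each end of each list, the mTOR list, and up to 6 called genes at each end of each interaction with a mean of at least 5. Others were named after their values were seen. These are HERPUD1, MANBA, CALR, XBP1, MCM3, MCM4 and ORC6, HSPA5 as the main ER chaperone, and AHNAK, SDF2L1 and GDF15 in the difference from WT. The members and lists were chosen with earlier results of these data known. Some genes that the rule selects are not reported here. Gene positions are from GENCODE v44 (hg38).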

Additional observations from a re-analysis of the deposited data

Results flagged for a closer look

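The results below are tested differences in the Torin response of TFE3 KO cells from that of another genotype, as log2 values of the interaction in limma. No explanation was weighed, and clone and genotype cannot be told apart.

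Against WT 36 genes were called. The response of TFE3 KO was higher for CRYAB (2.67), RORB (1.84), NUPR1 (1.70), PSAT1 (1.56), CYR61 (1.47), FAM133A (1.47), AHNAK (1.31), SDF2L1 (1.09), HSPA5 (1.07), HERPUD1 (1.05) and TFE3 (1.01). It was lower for SHISA2 (-1.78), FOSL1 (-1.57), FAM111B (-1.42), DNM3 (-1.25), TMEM37 (-1.21), CTLA4 (-1.13) and GDF15 (-1.05). NUPR1 and PSAT1 were at or near the reading floor in all 6 TFE3 KO libraries. Over 21 alternatives the call was lost under 14 for PSAT1, 13 for FOSL1 and TFE3, 12 for TMEM37, 10 for DNM3, 8 for FAM111B, 7 for FAM133A, 6 for NUPR1 and HERPUD1, 4 for CTLA4, 3 for SHISA2 and SDF2L1, 2 for RORB, AHNAK and HSPA5, and 0 for CRYAB, CYR61 and GDF15.

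Against TFEB KO 180 genes were called. The response was higher for AHNAK (2.31), CRYAB (2.06), RORB (1.81), FBXO2 (1.80), PRICKLE1 (1.76) and FAR2P1 (1.55), and lower for SHISA2 (-2.46), CCNE2 (-1.96), FAM111B (-1.91), ATP1B1 (-1.74), BASP1 (-1.67) and AMIGO2 (-1.67). Against DKO 1 gene was called, DHRS2 (-2.09).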

How the results depend on the processing

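The count of genes called with Torin in TFE3 KO cells, 1523, was 1297 (minimum value 5) to 2130 (edgeR) over all alternatives, with 1539 when the TFE3 KO libraries were thinned to 4528920 reads each, an alternative chosen after seeing the data. Genes called higher numbered 1424 with edgeR and 1368 with DESeq2 against 911, while those lower stayed within 1.5 times of 612. The count against WT was 19 with DESeq2, 23 with only the groups compared in the fit, 9 with the duplicated column as WT Torin and 16 with it under both labels, where the count against TFEB KO was 90 and 95. The count against DKO was 2 with a pseudocount of 0.1, 2 with a minimum of 5 and 3 with DESeq2. Leaving out 1 library at a time gave 1506 to 1606 calls for Torin in TFE3 KO (889 to 965 higher, 617 to 652 lower), 152 to 205 against TFEB KO, 21 to 37 against WT (21 without WT control 3, 22 without TFE3 KO control 1, 23 without TFE3 KO control 3) and 1 to 5 against DKO (5 without DKO control 3, 4 without DKO control 1, 2 without TFE3 KO control 1 or without DKO Torin 1). The replicate number was also fitted as a block: libraries with the same number did not deviate together in TFE3 KO (r of -0.0478, 0.0233 and -0.0273 across genes), while r was 0.0337, 0.0267 and 0.128 in TFEB KO and 0.0387, 0.0656 and 0.143 in DKO, not over 0.1 in every pair, so numbers were not taken to pair samples, and the replicate block gave 1523 calls, with 2 against DKO and 39 against WT. Of the named genes' Torin values under the alternatives, 2392 of 2412 stayed on their side of the threshold, with 11 lost, 9 gained and 0 reversed. Of 838 values for 39 named differences 725 stayed, 113 lost their call (in 17 of the 39) and 0 reversed. For all these counts the cause was not tested. Depth limits values near 3 reads (0.460 to 0.668 in these libraries).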
